A study of Homo sapiens with 12 samples.

Results

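The genes described here are 46 genes of the lysosome: 27 genes for its enzymes, lipid carriers and membrane proteins, 13 for the proton pump that acidifies it (the V-ATPase), and 6 for the TFEB family of transcription factors and the Rag GTPase branch that controls them. They are named by symbol, by function and without a threshold on any value, and were matched to the Ensembl identifiers of the count tables. All 46 were found among the 61906 genes listed. The study measured RNA in MOLM-14, an established human line of acute myeloid leukemia, by RNA-seq in 2 separate experiments with 3 libraries per group. In the knockdown experiment the cells carried a lentivirus with a control shRNA (shControl) or an shRNA against the RNA helicase gene DDX5 (shDDX5) and were taken at 96 hours. In the compound experiment the cells received 0.1% DMSO or 100 nM of RX-5902, a small molecule reported to target the phosphorylated form of DDX5, for 6 hours. The experiments share no library, 1 shRNA against DDX5 was used and no group had DDX5 restored, so effects of that shRNA on other targets and effects of less DDX5 cannot be told apart.

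The lysosome is the acidic compartment in which cells break down proteins, glycans, lipids and material delivered by autophagy and endocytosis. Its hydrolases work at low pH, which the V-ATPase maintains by pumping protons with energy from ATP. TFEB, TFE3 and MITF are related transcription factors that bind short DNA elements near many lysosomal genes. When nutrients are plentiful, Rag GTPases on the lysosome bring these factors to the kinase complex mTORC1, which phosphorylates them and keeps them in the cytoplasm. Myeloid cells, which engulf material and store enzymes in granules, are rich in lysosomal proteins.

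The libraries held 17603589 to 19674098 counts in the knockdown experiment and 20264250 to 20367575 in the compound experiment. Gene positions are those of the count tables, for which the submitters' notes name GRCh38.p13. Levels are given as CPM, which are counts scaled to library size with edgeR's TMM factors. DDX5 had 755, 718 and 729.5 CPM with shControl against 159, 164 and 161 CPM with shDDX5 (log2 -2.19, edgeR adjusted p = 3.44e-06), and 854, 868 and 863 CPM with DMSO against 1108, 1067 and 1023 CPM with RX-5902 (log2 0.31). The targeted gene was thus low in all 3 shDDX5 libraries, and it was higher with RX-5902. The library of shDDX5 replicate 1 stood apart: the chi-square per gene against replicates 2 and 3 was 46.3 and 46.4, where all other replicate pairs lay between 1.68 and 5.93, and 10.3% of its counts were mitochondrial against 5.19% to 8.09% in the others. It had a median log2 excess of 0.16 over the mean of replicates 2 and 3 across the 46 members, with 39 above 0, while the median over all tested genes was -0.0018. Of 12 genes that mark myeloid leukemia cells, 10 were measured at testable levels in the knockdown experiment, while ANPEP and CD68 lay at or under 0.365 CPM in its 6 libraries, and the 4 erythroid markers had no count there.

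Lysosomal genes rose broadly after the knockdown. Of the 46 members 45 could be tested, and in shDDX5 cells 32 were higher and 3 lower than in shControl cells, at an adjusted p under 0.05 (edgeR quasi-likelihood F test, Benjamini-Hochberg over all genes tested). Over all 14463 genes tested in that experiment 28.4% were higher and 28.3% lower. The median log2 fold change was 0.78 over the 45 members and -0.0007 over all genes. The 46 members summed to 6893, 7020 and 7120.1 CPM with shControl and to 15258, 13020.2 and 13396 CPM with shDDX5. Every shDDX5 library lay above every shControl library, with replicate 1 the highest. Without shDDX5 replicate 1, edgeR called 36 members higher and 5 lower, with a median of 0.83, while of all 14916 genes then tested 35.7% were higher and 35.7% lower. In such bulk libraries, more cells of a kind rich in lysosomes and more lysosomal RNA per cell cannot be told apart.

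With RX-5902 the changes were smaller. Of the 45 tested members 27 were higher and 7 lower than with DMSO (edgeR), against 32.2% higher and 31.9% lower among all 13941 genes tested in the compound experiment. The median log2 fold change was 0.20 over the members and 0.012 over all genes. Tested against a fold of 1.2 instead of any change, 10 members were higher and 1 lower, against 18.5% higher and 18.8% lower among all genes. The members summed to 3456, 3418 and 3301 CPM with DMSO and to 3905, 3912 and 3962 CPM with RX-5902, so the groups did not overlap here either. In both experiments these sums weigh genes with high counts most, such as PSAP, whose library values are given below. The cysteine protease gene CTSL was the member that could not be tested: it had a count in 1 shControl library and in 1 RX-5902 library, and none elsewhere. No exon bases shared between CTSL and another listed gene were found. Reads that map to several genes, and genes that overlap CD68, were not checked here. The low count of CTSL, like that of CD68, thus need not mean low RNA.

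**Figure D1:**
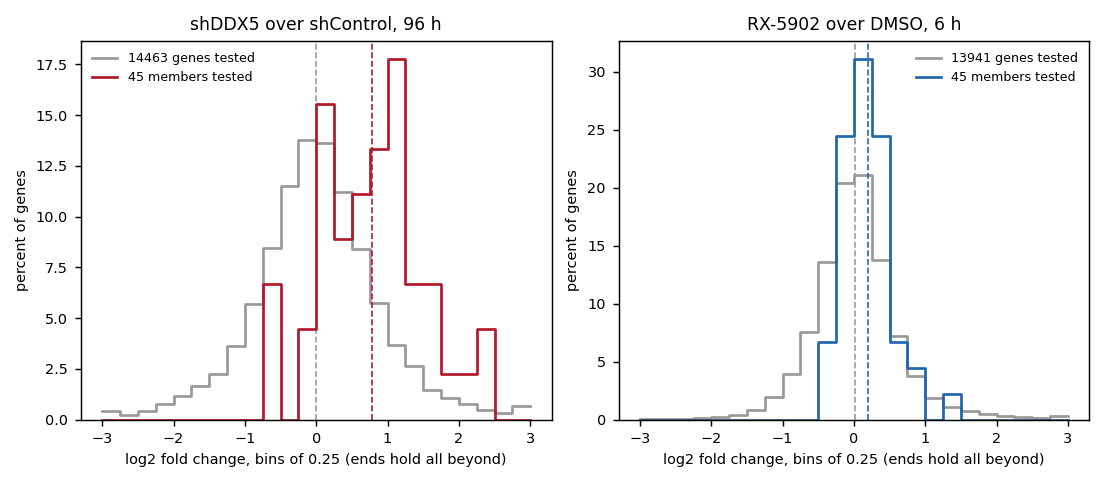
The share of genes (y axis, percent) in each bin of the log2 fold change (x axis, bins of 0.25, end bins holding all beyond) for all tested genes in gray and the 45 tested members in color, with dashed lines at the medians. In the knockdown experiment the members' median of 0.78 lies right of the median of all genes at -0.0007, while in the compound experiment the medians of 0.20 and 0.012 lie close together.

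Promoter sequences of members were read because TFEB and TFE3 are known to bind the CLEAR element, whose core is TCACGTG or, as a palindrome, TCACGTGA. RefSeq windows from 250 bases before to 50 bases after a transcription start (GRCh38.p14) were matched by symbol for 33 of the 46 members. The members without an entry were LAMP2, CTSB, CTSS, HEXA, NAGLU, ASAH1, PSAP, ATP6V0E1, ATP6V1A, ATP6V1B2, ATP6V1C1, ATP6V1H and RRAGD. Searched on both strands, TCACGTG occurred in 9 of the 33 members (27.3%) and in 4.49% of all 27305 genes with a window, and TCACGTGA, which contains it, in 5 members (15.2%) and 1.18% of all genes. The shorter E-box CACGTG, which lies within both, occurred in 10 members (30.3%) against 8.77%, and the M-box TCATGTG, bound by MITF, in 6 members (18.2%) against 3.59%. Members can have several windows, and counted by window TCACGTG was in 18.4% of the members' 49 and in 3.71% of all 35116. The shares of all genes include genes too low to test here, while all members but CTSL were tested. Among genes tested in the knockdown experiment TCACGTG was more common, in 732 genes against 9315 without it. The 6 promoters printed here are the 5 members with TCACGTGA, and NEU1, which has TCACGTG and the largest log2 rise in the knockdown experiment. Each runs from 200 bases before the start to 10 bases from the start onward, 5′ to 3′ on the strand of the gene, with TCACGTG and TCACGTGA in capitals. They lie at chr20:45891135-45891344 (CTSA, plus strand), chr19:7522424-7522633 (MCOLN1, plus), chr16:67481148-67481357 (ATP6V0D1, minus), chr6:31862812-31863021 (NEU1, minus), chr13:113297039-113297248 (LAMP1, plus) and chr17:80101381-80101590 (GAA, plus).
CTSA: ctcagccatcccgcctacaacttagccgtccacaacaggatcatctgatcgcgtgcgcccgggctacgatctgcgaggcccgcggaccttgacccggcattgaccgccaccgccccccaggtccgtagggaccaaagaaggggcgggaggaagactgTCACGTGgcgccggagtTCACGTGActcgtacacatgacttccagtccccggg
MCOLN1: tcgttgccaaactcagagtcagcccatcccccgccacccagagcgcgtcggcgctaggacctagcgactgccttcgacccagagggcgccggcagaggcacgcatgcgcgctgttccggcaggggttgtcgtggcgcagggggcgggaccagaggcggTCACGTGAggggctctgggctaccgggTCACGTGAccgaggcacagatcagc
ATP6V0D1: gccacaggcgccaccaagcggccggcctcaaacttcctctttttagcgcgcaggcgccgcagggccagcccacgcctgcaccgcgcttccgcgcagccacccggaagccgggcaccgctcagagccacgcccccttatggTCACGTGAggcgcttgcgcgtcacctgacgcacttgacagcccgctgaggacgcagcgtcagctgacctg
NEU1: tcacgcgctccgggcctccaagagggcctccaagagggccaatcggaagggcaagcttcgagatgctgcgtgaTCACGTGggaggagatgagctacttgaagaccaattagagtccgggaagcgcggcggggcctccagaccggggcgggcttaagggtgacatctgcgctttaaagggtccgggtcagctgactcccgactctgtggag
LAMP1: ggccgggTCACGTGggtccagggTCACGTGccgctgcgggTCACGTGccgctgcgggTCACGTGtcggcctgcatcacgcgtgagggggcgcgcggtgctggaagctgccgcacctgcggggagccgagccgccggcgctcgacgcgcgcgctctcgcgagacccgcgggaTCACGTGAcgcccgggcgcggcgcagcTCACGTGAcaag
GAA: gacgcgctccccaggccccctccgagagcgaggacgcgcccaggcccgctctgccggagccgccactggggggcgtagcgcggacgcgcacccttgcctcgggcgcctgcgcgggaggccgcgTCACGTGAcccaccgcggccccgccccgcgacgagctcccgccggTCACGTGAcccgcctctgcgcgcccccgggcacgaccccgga
CTSA, MCOLN1, ATP6V0D1 and NEU1 rose in shDDX5 cells, whereas LAMP1, with the most capital runs of the 6, fell and GAA did not pass the test. Of the tested members with TCACGTG in a window 6 of 9 rose and 1 fell in shDDX5 cells, and of those with a window but no match 16 of 23 rose and 2 fell. Among all tested genes with a window 28.1% of the 732 with TCACGTG rose, and 27.8% of the 9315 without it. For TCACGTGA these shares were 33.2% of 235 genes and 27.7% of 9812, and 3 of the 5 members that have it rose. For CACGTG they were 24.9% of 1280 and 28.3% of 8767, and 7 of 10 members rose. For TCATGTG they were 38.8% of 255 and 27.5% of 9792, and 5 of 6 members rose. With RX-5902, 6 of the 9 members with TCACGTG rose and 1 fell, and 14 of the 23 without TCACGTG rose and 2 fell. Of all tested genes with a window, 257 of 732 with TCACGTG (35.1%) rose and 255 fell. Without it 3076 of 9109 (33.8%) rose and 3147 fell. For TCACGTGA 2 of 5 members with it rose and 18 of 27 without it, against 39.7% and 33.7% of all such genes. For CACGTG these were 7 of 10 and 13 of 22 members, against 30.0% and 34.4%. For TCATGTG they were 2 of 6 and 18 of 26 members, against 41.6% and 33.7%. A match of these letters is a description of the sequence and not a measured binding site.

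Among the membrane proteins and channels, 3 of 5 rose and 1 fell in shDDX5 cells (median log2 1.05). This and the later class counts of the knockdown experiment stand against 28.4% higher and 28.3% lower of all genes. MCOLN1 (chr19:7522624-7534009), the lysosomal calcium channel TRPML1 whose promoter has TCACGTGA at 2 places, stood at 32.9, 36.8 and 38.0 CPM in shControl and 126, 113 and 119.6 CPM in shDDX5 libraries. All 3 shDDX5 values were far above every control value, and the log2 fold change was 1.74 (SE 0.09, edgeR adjusted p = 5.07e-06). LAMP2, a glycoprotein of the lysosomal membrane needed for autophagy, went from 229.6, 221 and 222 to 469, 472 and 451 CPM. Its groups were far apart and the libraries within each group close together (log2 1.05, SE 0.08, adjusted p = 1.85e-05). CD63, a tetraspanin of late endosomes, went from 240.3, 242 and 239.9 to 704, 475 and 476 CPM. Here shDDX5 replicate 1 was well above the other 2, which still lay far above the controls (log2 1.197, SE 0.16, adjusted p = 0.000329).

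LAMP1 (chr13:113297239-113323672), an abundant glycoprotein of the lysosomal membrane and a close relative of LAMP2, moved the other way. It stood at 356, 375 and 391 CPM in shControl and 241, 226 and 225 CPM in shDDX5 libraries. Each shDDX5 library was below each control library (log2 -0.70, SE 0.08, adjusted p = 0.000190 with edgeR). The receptor SCARB2, which carries glucocerebrosidase to the lysosome, had 44.2, 42.2 and 45.9 CPM against 34.1, 38.7 and 39.8 CPM, and did not pass the test (log2 -0.23, adjusted p = 0.0567). Without shDDX5 replicate 1 SCARB2 passed it, at -0.17 (adjusted p = 0.0152).

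In the compound experiment 3 of the 5 membrane genes rose and 1 fell (median 0.13), against 32.2% higher and 31.9% lower of all genes. SCARB2 went from 26.7, 24.8 and 24.8 CPM with DMSO to 36.0, 34.0 and 33.2 CPM with RX-5902, with no overlap (log2 0.44, SE 0.06, edgeR adjusted p = 1.27e-07). MCOLN1 went from 22.9, 21.9 and 21.1 to 23.3, 27.2 and 27.0 CPM. Replicate 1 of RX-5902 was just above the highest DMSO library (log2 0.24, SE 0.07, adjusted p = 0.00314). LAMP2 was slightly lower (log2 -0.09, adjusted p = 0.0474), a call lost without any 1 of DMSO replicates 2 or 3 or the RX-5902 replicates (adjusted p 0.0556 to 0.120). CD63 was slightly higher (0.13, adjusted p = 0.0162), also lost without DMSO replicate 1 or 3 (adjusted p = 0.0876 and 0.0759) or RX-5902 replicate 3 (0.239). LAMP1 lay at 222 to 236 CPM in all 6 libraries, with overlapping groups.

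**Figure D2:**
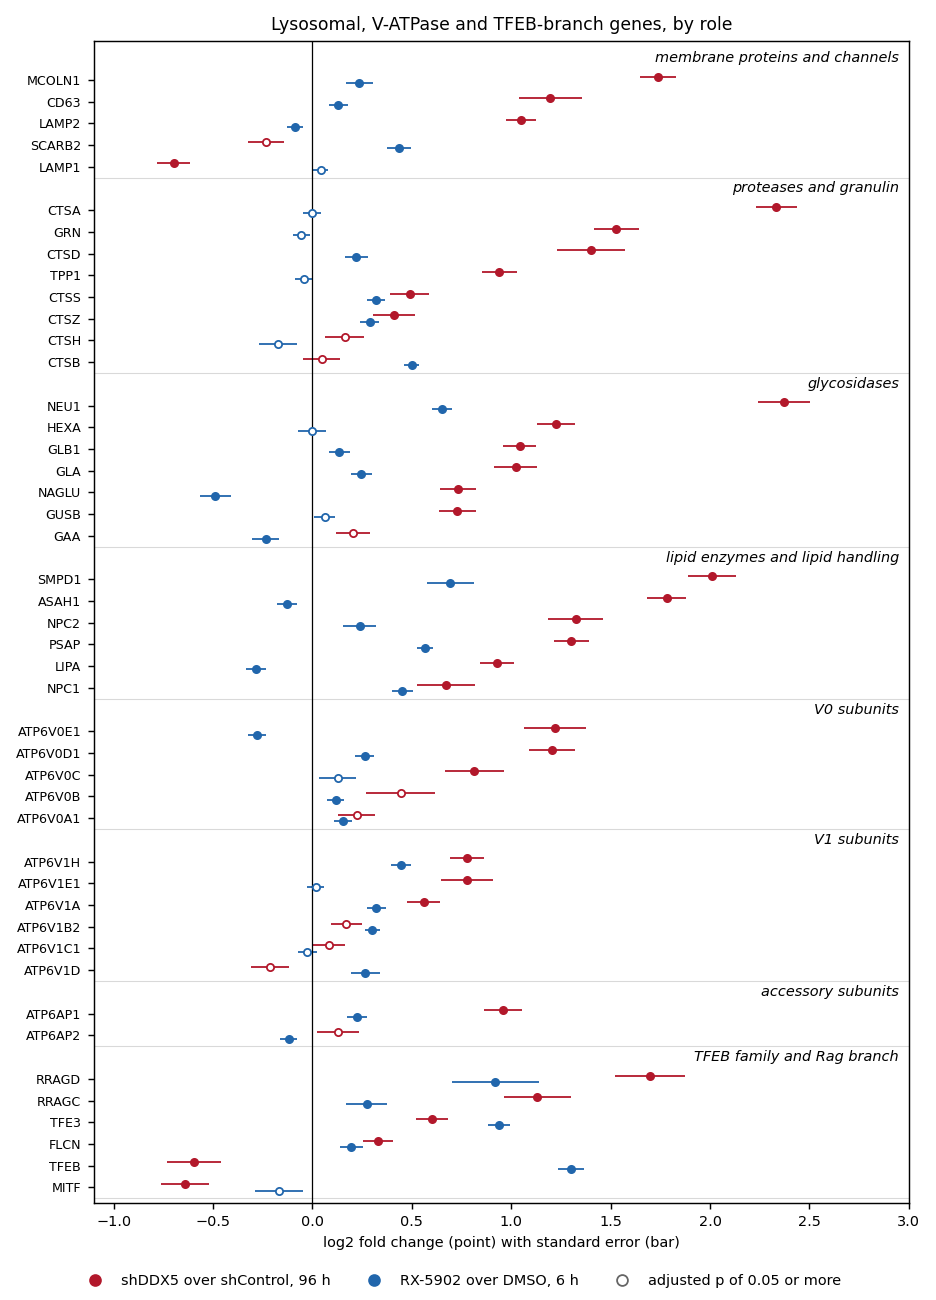
Log2 fold changes with standard errors (x axis) of the 45 tested members, grouped by role (y axis), for shDDX5 over shControl in red and RX-5902 over DMSO in blue, with open symbols where the adjusted p was 0.05 or more. Red points reach 2.37 (NEU1), the blue points other than those of TFEB, TFE3 and RRAGD lie between -0.49 (NAGLU) and 0.69 (SMPD1), and for TFEB the red point is left and the blue point right of 0.

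Of the 8 testable proteases and granulin genes 6 rose in shDDX5 cells and 0 fell (median 0.72). CTSA (chr20:45890144-45898949), a serine carboxypeptidase that also protects the sialidase NEU1 and β-galactosidase within a complex, stood at 114, 125 and 128 CPM in shControl and 675, 561 and 614 CPM in shDDX5 libraries. The gap between the groups was far wider than the spread within either (log2 2.33, SE 0.10, edgeR adjusted p = 3.63e-06). GRN, which encodes progranulin, the precursor of lysosomal granulin peptides, went from 659.7, 708 and 707 to 2269.8, 1784 and 1933 CPM, again with replicate 1 highest and no overlap (log2 1.53, SE 0.11, adjusted p = 1.92e-05). TPP1, a peptidase that removes tripeptides from protein ends, went from 144, 142 and 132 to 292, 257 and 254 CPM (log2 0.94, SE 0.09, adjusted p = 6.61e-05). The aspartic protease gene CTSD went from 126, 142 and 139 to 465, 296 and 314 CPM. Its replicate 1 lay well above the others, all 3 lay above the controls, and the log2 fold change was 1.40 (SE 0.17, adjusted p = 0.000229). CTSA shares 11.1% of its exon length with NEURL2 on the opposite strand and CTSD 23.4% with PRADX, both with few counts. Genes annotated on the same strand cover 22.9% of CTSD, with 40 counts in the knockdown experiment, and 11.6% of TPP1, with no counts. The levels of CTSD and TPP1 are thus less certain.

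The cysteine cathepsins changed less. CTSS, known from antigen presentation, rose by 0.49 on the log2 scale and CTSZ by 0.41 in shDDX5 cells, the latter with an adjusted p of 0.0114 that became 0.0635 without shControl replicate 1 and 0.0592 without shControl replicate 2. CTSZ shares 31.7% of its exon length with NELFCD on the opposite strand, so its level is less certain. CTSB stood at 748, 793 and 836 CPM in shControl and 878, 768 and 809 CPM in shDDX5 libraries, which overlapped (log2 0.05, adjusted p = 0.695). CTSH was at 0.16 (adjusted p = 0.191).

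With RX-5902 the same class gave 4 higher and 0 lower of 8, against 32.2% higher and 31.9% lower of all genes. Those 4 were all cathepsins: CTSB, CTSS, CTSZ and CTSD. CTSB had the clearest change, from 246, 235 and 226 CPM with DMSO to 334, 333 and 331 CPM with RX-5902. The 3 treated libraries were nearly equal and above every control (log2 0.50, SE 0.04, edgeR adjusted p = 3.06e-13). CTSS went from 132, 127 and 132 to 174, 159 and 155 CPM, with no overlap (log2 0.32, SE 0.04, adjusted p = 8.7e-08). CTSA, the protease gene with the largest rise after the knockdown, had 68.8, 66.6 and 63.6 CPM with DMSO and 64.6, 66.7 and 67.3 CPM with RX-5902, within the same range (adjusted p = 0.970). GRN and TPP1 did not pass the test at -0.06 and -0.04, though without DMSO replicate 3 both passed as lower (-0.12 each), as did CTSH at -0.24 (adjusted p = 0.0443, against -0.17 and 0.117 with all libraries). Without that library the class thus had 4 higher and 3 lower.

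Glycosidases, which take sugars off glycans, were higher in shDDX5 cells for 6 of 7 genes and lower for 0 (median 1.02). NEU1 (chr6:31857659-31862905), the sialidase that removes terminal sialic acid, stood at 60.6, 65.7 and 67.2 CPM in shControl and 396, 289.7 and 316 CPM in shDDX5 libraries. Its rise of 2.37 on the log2 scale was the largest of the 45 tested members (SE 0.13, edgeR adjusted p = 5.63e-06), and the groups lay far apart. HEXA, the α subunit of β-hexosaminidase A, which acts on gangliosides, went from 24.2, 26.4 and 25.8 to 65.3, 55.4 and 58.0 CPM (log2 1.23, SE 0.09, adjusted p = 2.2e-05). GLB1, the β-galactosidase of the CTSA and NEU1 complex, went from 70.7, 75.7 and 75.3 to 163, 150.3 and 143 CPM (log2 1.04, SE 0.08, adjusted p = 2.88e-05). All 3 genes of this complex were thus higher, at 2.33 for CTSA, 2.37 for NEU1 and 1.04 for GLB1. GLA, an α-galactosidase that acts on globotriaosylceramide, went from 47.2, 52.8 and 51.2 to 117, 96.7 and 93.3 CPM, with replicate 1 highest and no overlap (log2 1.02, SE 0.11, adjusted p = 0.000108). GUSB and NAGLU, which degrade glycosaminoglycans, both rose by 0.73. GAA, the acid α-glucosidase that breaks down glycogen, had 64.3, 68.2 and 69.6 against 73.6, 75.8 and 83.5 CPM and did not pass the test (log2 0.21, adjusted p = 0.0676), but passed it at 0.24 without shDDX5 replicate 1 (adjusted p = 0.000299). HEXA shares 13.2% of its exon length with a gene on the opposite strand that had few counts, and GLA shares 8.99% with the ribosomal protein gene RPL36A.

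With RX-5902, 3 of 7 glycosidases rose and 2 fell (median 0.06), against 32.2% higher and 31.9% lower of all genes. NEU1 rose here too, from 53.2, 56.9 and 49.8 to 80.4, 84.6 and 86.0 CPM, with no overlap (log2 0.65, SE 0.05, edgeR adjusted p = 2.12e-13). NAGLU fell, from 17.3, 15.8 and 15.8 to 11.8, 11.1 and 12.0 CPM, and its groups were also apart (log2 -0.49, SE 0.08, adjusted p = 2.02e-06). GAA fell by 0.23 and GLA rose by 0.25. GLB1 rose by 0.14, a call lost without DMSO replicate 2 (0.11, adjusted p = 0.119), DMSO replicate 3 (0.08, adjusted p = 0.187) or RX-5902 replicate 1 (0.13, adjusted p = 0.0505).

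All 6 genes for lipid enzymes and lipid handling rose in shDDX5 cells (median 1.31). ASAH1, the acid ceramidase, stood at 191, 179 and 182 CPM in shControl and 700.4, 611 and 589 CPM in shDDX5 libraries (log2 1.78, SE 0.10, edgeR adjusted p = 5.48e-06). SMPD1 (chr11:6390440-6394998), the acid sphingomyelinase, which makes ceramide, went from 5.73, 6.75 and 7.10 to 28.2, 23.5 and 27.1 CPM (log2 2.01, SE 0.12, adjusted p = 7.87e-06). Neither gene had overlapping groups, so the enzyme that forms ceramide and the one that breaks it down were both higher. PSAP (chr10:71816298-71851251), the precursor of the saposins that help these enzymes reach their lipids, went from 1492, 1489 and 1489 to 3789.8, 3558 and 3673 CPM (log2 1.30, SE 0.09, adjusted p = 1.39e-05). LIPA, the lipase for cholesteryl esters and triglycerides, went from 149, 144 and 142 to 296, 278 and 255 CPM (log2 0.93, SE 0.09, adjusted p = 5.77e-05). In both cases all shDDX5 libraries were well above all controls. The cholesterol carriers NPC2 and NPC1 rose by 1.32 and 0.67. For NPC1 shDDX5 replicate 1 (49.6 CPM) was below replicates 2 and 3 (71.9 and 73.4 CPM), while for most members it was above them, and NPC1 shares 6.38% of its exon length with RMC1 on the opposite strand.

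With RX-5902 the same class had 4 higher and 2 lower of 6 (median 0.34), against 32.2% higher and 31.9% lower of all genes. PSAP went from 333, 328 and 316 to 475, 474 and 498 CPM (log2 0.57, SE 0.04, edgeR adjusted p = 9.8e-15). NPC1, which moves cholesterol out of the lysosome, went from 40.7, 40.02 and 37.3 to 53.1, 53.0 and 55.5 CPM (log2 0.45, SE 0.05, adjusted p = 3.49e-09). Both had groups without overlap. SMPD1 rose by 0.69, and NPC2 by 0.24 with an adjusted p of 0.0117, which was 0.101 without DMSO replicate 2. LIPA fell by 0.28 and ASAH1 by 0.13, and the latter call was lost without RX-5902 replicate 2 (adjusted p = 0.0880) or replicate 3 (adjusted p = 0.0571).

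**Figure D3:**
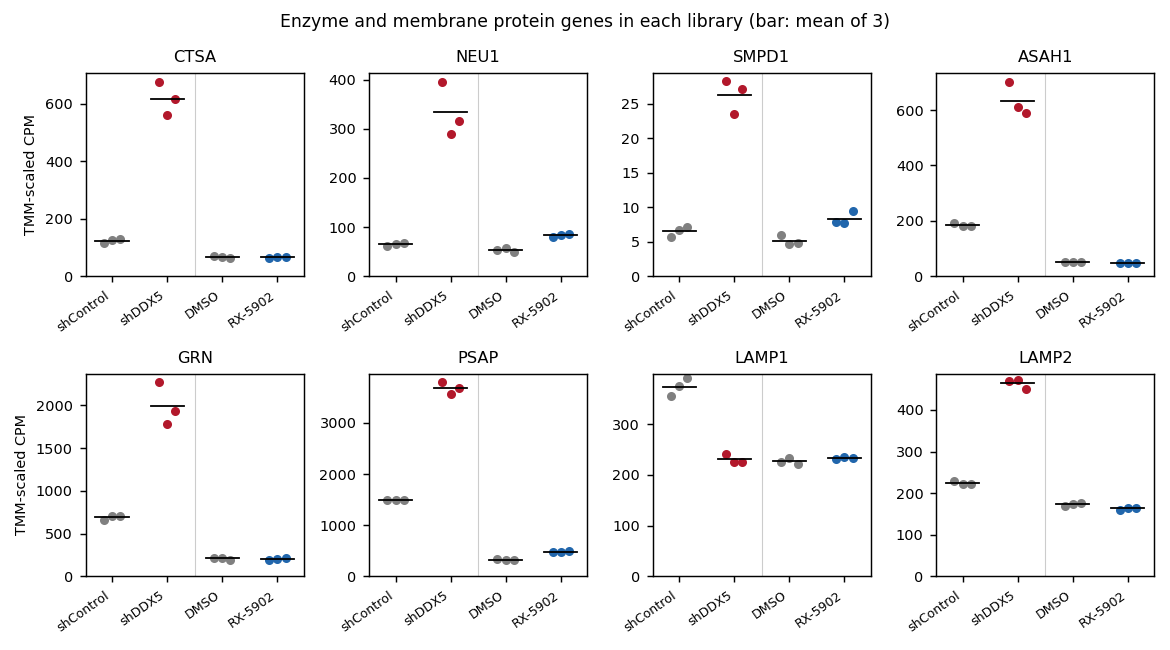
TMM-scaled CPM (y axes, from 0) of 8 members in each of the 12 libraries, with the 4 groups on the x axes and a bar at the mean of 3. In shDDX5 libraries 7 of the 8 genes stand above all other groups, LAMP1 is lower than in shControl, and CTSA with RX-5902 lies within the range of DMSO.

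The V-ATPase members rose in part: 7 of 13 were higher and 0 lower in shDDX5 cells (median 0.56). In the membrane sector V0, which carries protons across, 3 of 5 rose. ATP6V0D1 (chr16:67438014-67481181), whose subunit d links the V0 ring to the stalk and whose promoter is shown above, went from 135, 146 and 151 to 385, 296 and 315 CPM (log2 1.21, SE 0.12, edgeR adjusted p = 6.46e-05). ATP6V0E1, the small subunit e, went from 90.7, 88.9 and 88.5 to 266, 177 and 182 CPM (log2 1.22, SE 0.16, adjusted p = 0.000301). Both were highest in shDDX5 replicate 1 and above the controls in all 3. ATP6V0C, the proteolipid of the proton-carrying ring, went from 5.58, 6.46 and 6.71 to 9.09, 11.7 and 12.2 CPM (log2 0.81, SE 0.15, adjusted p = 0.00179). A gene annotated on the same strand covers 60.9% of its exon length, which leaves its level uncertain, although that gene had 1 count in the knockdown experiment.

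ATP6V0B, another proteolipid, had 190.2, 208 and 206 CPM in shControl and 359.8, 225 and 236 CPM in shDDX5 libraries and did not pass the test (log2 0.44, edgeR adjusted p = 0.0569). It passed without any 1 of the shDDX5 libraries: at 0.19 without replicate 1 (adjusted p = 0.000588), at 0.57 without replicate 2 (0.0270) and at 0.55 without replicate 3 (0.0445). ATP6V0A1 was at 0.22 with all libraries and did not pass, but passed at 0.30 without shDDX5 replicate 1.

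In the V1 sector, which hydrolyzes ATP, 3 of 6 rose. The regulatory subunit gene ATP6V1H went from 41.2, 37.3 and 41.0 to 72.8, 66.0 and 66.3 CPM (log2 0.78, SE 0.09, edgeR adjusted p = 0.000135). The catalytic subunit gene ATP6V1A went from 60.2, 52.7 and 56.7 to 84.6, 86.1 and 79.3 CPM (log2 0.56, SE 0.08, adjusted p = 0.000746). Both had clear gaps between the groups. ATP6V1E1, part of the peripheral stalk, went from 117, 112 and 117 to 242, 178 and 174 CPM, with replicate 1 highest (log2 0.78, SE 0.13, adjusted p = 0.00133). ATP6V1B2 (0.17), ATP6V1C1 (0.08) and ATP6V1D (-0.21) did not pass the test with all libraries, and without shDDX5 replicate 1 ATP6V1B2 passed at 0.15 and ATP6V1D at -0.26. Of the accessory subunits, ATP6AP1 went from 100.0, 106 and 115 to 224, 195 and 206 CPM, with no overlap (log2 0.96, SE 0.09, adjusted p = 7.33e-05), while ATP6AP2, also known as the prorenin receptor, had overlapping groups (0.13, adjusted p = 0.327).

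With RX-5902, 8 of the 13 V-ATPase genes were higher and 2 lower (median 0.15), against 32.2% higher and 31.9% lower of all genes. ATP6V1H went from 41.0, 40.6 and 39.3 to 54.3, 55.8 and 54.5 CPM (log2 0.45, SE 0.05, edgeR adjusted p = 2.15e-09). ATP6V1B2, which binds ATP without hydrolyzing it, went from 335, 331 and 329.9 to 417, 406 and 405 CPM (log2 0.30, SE 0.04, adjusted p = 1.04e-08). Neither overlapped with DMSO. In V0 the subunits d and e went opposite ways. ATP6V0D1 went from 50.04, 53.8 and 49.0 to 59.8, 60.4 and 63.1 CPM (log2 0.26, SE 0.05, adjusted p = 2.6e-05), and ATP6V0E1 from 80.6, 79.3 and 76.0 to 62.0, 67.3 and 65.1 CPM (log2 -0.28, SE 0.05, adjusted p = 3.28e-06). The accessory pair differed in direction too: ATP6AP1 went from 73.3, 68.8 and 63.5 to 79.2, 78.2 and 82.7 CPM (log2 0.22, adjusted p = 0.000160) and ATP6AP2 from 88.8, 90.0 and 87.7 to 83.3, 81.9 and 80.2 CPM (log2 -0.12, adjusted p = 0.0148). The ATP6AP2 call was lost without RX-5902 replicate 2 (adjusted p = 0.0547) or 3 (0.0672), that of ATP6V0A1 without DMSO replicate 3 (0.0652), and that of ATP6V0B, at 0.12, without DMSO replicate 2 (0.0594) or 3 (0.108) or RX-5902 replicate 2 (0.0753) or 3 (0.0541).

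Levels of different genes are compared per length, within a group, as TPM (mean ± SD, n = 3). These are counts divided by gene length and then scaled to the same total in every library. Among the 13 V-ATPase genes in shControl cells ATP6V0B was highest, at 212 ± 14.1 TPM, followed by ATP6V0E1 at 190 ± 1.88, ATP6V1B2 at 151 ± 1.68 and ATP6V1E1 at 125 ± 3.87 TPM. The lowest were ATP6V1D at 13.6 ± 0.765 and ATP6V0C at 15.1 ± 1.75 TPM, and their difference was smaller than the SD of ATP6V0C. In shDDX5 cells ATP6V0E1 was highest, at 368 ± 35.7 TPM, and ATP6V1D lowest, at 9.97 ± 0.811 TPM. The 13 genes thus spanned more than an order of magnitude in RNA per length as counted here. The lengths cover all annotated exons of a gene, which 1 transcript need not hold, so the order depends in part on the annotation. The place of ATP6V0C is uncertain, because a same-strand gene covers 60.9% of its exon length. Among all 46 members PSAP was highest in both control groups, at 1634 ± 34.5 TPM in shControl and 366 ± 5.79 TPM in DMSO cells, followed by GRN at 671 ± 40.5 and 210 ± 10.9 TPM. Of the testable members RRAGD was the lowest in both control groups, at 1.83 ± 0.383 and 0.749 ± 0.206 TPM. The 2 control groups come from separate experiments with different handling, so their difference in level was not tested.

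**Figure D4:**
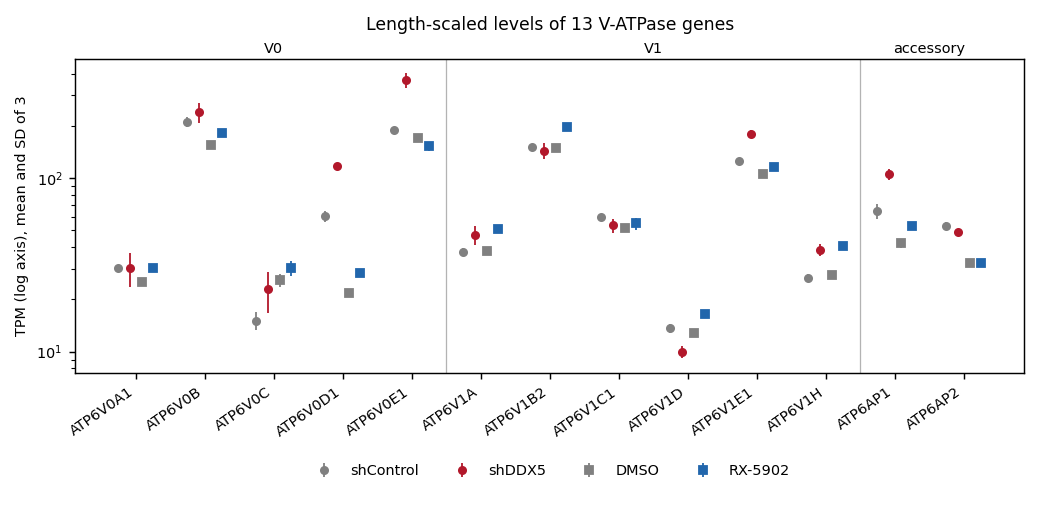
TPM (y axis, log scale, mean and SD of 3 libraries) of the 13 V-ATPase genes (x axis) in the 4 groups. Within each group the genes spread widely, with ATP6V1D the lowest in all 4, and the values serve to order genes within a group, not to compare groups.

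Of the 6 genes of the TFEB family and the Rag branch 4 rose and 2 fell in shDDX5 cells (median log2 0.47). With RX-5902 5 rose and 0 fell (median 0.60), against 32.2% higher and 31.9% lower of all genes. TFEB itself (chr6:41683978-41736259) stood at 14.6, 17.5 and 17.7 CPM in shControl and 12.6, 9.23 and 11.2 CPM in shDDX5 libraries. All 3 shDDX5 values were below all controls (log2 -0.59, SE 0.14, edgeR adjusted p = 0.00615). With RX-5902 it went from 14.3, 15.1 and 14.3 to 34.5, 36.4 and 36.8 CPM, the largest change of any member in the compound experiment (log2 1.30, SE 0.06, adjusted p = 3.76e-18). The difference between the 2 changes was -1.91 (SE 0.15, adjusted p = 1.61e-07, edgeR with all 12 libraries). The median log2 change of the 45 members, TFEB among them, was 0.78 in the experiment in which TFEB RNA fell and 0.20 in the one in which it rose. The experiments also differ in agent and time, TFEB protein was not measured, and any part of TFEB in these changes was not tested.

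TFE3 (chrX:49028726-49043410), which binds the same element, rose in both experiments. It had 43.9, 42.6 and 41.9 CPM in shControl and 65.4, 60.7 and 68.5 CPM in shDDX5 libraries (log2 0.60, SE 0.08, edgeR adjusted p = 0.000413), and 27.2, 25.5 and 28.1 CPM with DMSO against 49.9, 51.6 and 53.4 CPM with RX-5902 (log2 0.94, SE 0.06, adjusted p = 5.53e-16). The rise was larger with RX-5902 (difference -0.36, SE 0.09, adjusted p = 0.00590). MITF, best known from melanocytes and osteoclasts, was low, at 8.12, 7.29 and 8.04 CPM in shControl and 5.28, 4.70 and 5.06 CPM in shDDX5 libraries, and fell (log2 -0.64, SE 0.12, adjusted p = 0.00223). With DMSO it had 6.22, 5.97 and 6.27 CPM and with RX-5902 5.64, 6.23 and 4.51 CPM, which overlapped (adjusted p = 0.221). TFE3 was the family member with the highest level per length in shControl cells, at 34.7 ± 0.0450 TPM, against 8.44 ± 1.05 for TFEB and 3.60 ± 0.208 TPM for MITF. In RX-5902 cells TFE3 stood at 46.4 ± 1.38 and TFEB at 20.2 ± 0.755 TPM.

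The Rag branch rose in both experiments. RRAGD, a Rag GTPase whose gene is itself known as a target of the family, had 3.39, 2.71 and 2.12 CPM in shControl and 8.97, 8.26 and 9.45 CPM in shDDX5 libraries (log2 1.70, SE 0.18, edgeR adjusted p = 9.62e-05). With DMSO it had 1.36, 1.16 and 0.752 CPM and with RX-5902 2.03, 2.30 and 1.89 CPM (log2 0.92, SE 0.22, adjusted p = 0.000492). Levels were low throughout, yet the groups did not overlap in either experiment. RRAGC, its close relative, had 11.6, 10.4 and 11.3 CPM in shControl and 31.2, 21.8 and 20.2 CPM in shDDX5 libraries (log2 1.13, SE 0.17, adjusted p = 0.000661). With DMSO it had 6.22, 7.54 and 7.52 CPM and with RX-5902 8.54, 9.11 and 8.05 CPM (log2 0.27, adjusted p = 0.0222), a call lost without DMSO replicate 1 (adjusted p = 0.177) or RX-5902 replicate 2 (adjusted p = 0.0989). RRAGC shares 23.1% of its exon length with a same-strand gene that had no counts. FLCN, the GTPase-activating protein for RagC and RagD, had 37.2, 35.9 and 36.5 CPM in shControl and 44.2, 47.5 and 46.0 CPM in shDDX5 libraries (log2 0.33, SE 0.08, adjusted p = 0.00655). With DMSO it had 28.6, 27.9 and 27.0 CPM and with RX-5902 31.1, 31.3 and 33.2 CPM (log2 0.20, SE 0.06, adjusted p = 0.00439). Both FLCN changes were small but without overlap between groups.

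**Figure D5:**
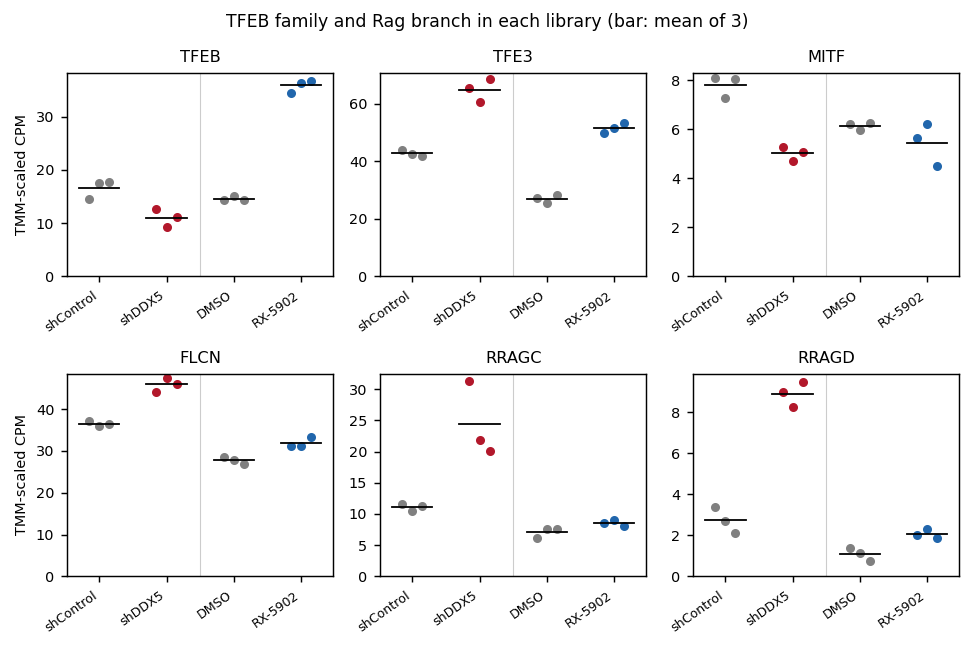
TMM-scaled CPM (y axes, from 0) of TFEB, TFE3, MITF, FLCN, RRAGC and RRAGD in each of the 12 libraries, with the 4 groups on the x axes and a bar at the mean of 3. TFEB is lower in shDDX5 than in shControl libraries and higher with RX-5902 (34.5 to 36.8 CPM) than with DMSO (14.3 to 15.1 CPM), while TFE3, FLCN, RRAGC and RRAGD are higher in both.

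Of the 45 tested members 20 (44.4%) were higher in both, against 10.4% of the 13233 genes tested in both. Another 5 members (11.1%) were higher in shDDX5 cells and lower with RX-5902, namely ASAH1, LIPA, NAGLU, LAMP2 and ATP6V0E1, against 7.10% of all genes. TFEB was the member lower in shDDX5 cells and higher with RX-5902 (8.86% of all genes), and 0 members were lower in both (12.8% of all genes). In the test of the difference between the changes, edgeR called 27 members with a higher change in the knockdown experiment and 7 with a lower one (LAMP1, CTSB, SCARB2, TFEB, TFE3, MITF and ATP6V1D), against 24.1% and 28.6% of all 15386 genes tested. The call of MITF (-0.49, adjusted p = 0.0289) was lost in 9 of the 12 fits that leave out 1 library (adjusted p 0.0527 to 0.105), and that of RRAGD, whose change was higher by 0.76 in the knockdown experiment (adjusted p = 0.0460), in 7 of them (0.0643 to 0.165). The median difference was 0.72 over the members and -0.047 over all genes. All 7 glycosidases had a higher change in the knockdown experiment, and so did 5 of the 6 lipid genes. Among members with a higher change in the knockdown experiment CTSA had the largest difference, 2.32 (SE 0.12, adjusted p = 2.07e-09). ASAH1 had the next of these, 1.89 (SE 0.11, adjusted p = 6.75e-09). Across the 45 members, the log2 fold changes of the experiments had a Pearson r of 0.03 and a Spearman rho of 0.03, and across the 13233 genes tested in both r was 0.12 and rho 0.13. These points are genes measured in the same libraries and are not independent. Agent, time (96 against 6 hours) and the lentivirus of the knockdown experiment differ together between the experiments and cannot be told apart. The control groups also differed in level, with member sums of 6893 to 7120 CPM in shControl and 3301 to 3456 CPM in DMSO libraries. Any part of this in the difference was not tested.

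Other genes of the pathway, from 4 lists of genes that are not members, moved in part with them in shDDX5 cells. The list counts stand against 28.4% higher and 28.3% lower of all genes in the knockdown experiment. Without shDDX5 replicate 1 both shares were 35.7%. With RX-5902 the shares of all genes were 32.2% higher and 31.9% lower, and the lists were not tested against them. Of 33 other testable lysosomal hydrolases and activators 19 rose and 4 fell in shDDX5 cells (median 0.66). PLBD2, a phospholipase-like protein of the lysosome, went from 89.7, 97.6 and 90.5 to 289, 285 and 289 CPM (log2 1.64, SE 0.08, edgeR adjusted p = 4.06e-06). ARSA, the arylsulfatase that acts on sulfatides, also rose by 1.64, and PLD3, an exonuclease of the lysosome, by 1.59. Without shDDX5 replicate 1 the counts in this list were 21 risen and 7 fallen of 34. With RX-5902, 13 of 32 rose and 10 fell (median -0.010), among them CTSK, the collagen-degrading cathepsin, from 4.80, 4.25 and 4.11 to 13.2, 12.1 and 11.0 CPM (log2 1.46, SE 0.11, adjusted p = 8.89e-14). PLA2G15, a lysosomal phospholipase, rose by 0.96 and the sulfatase gene ARSG fell by 1.13.

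Of 31 other membrane and sorting proteins 17 rose and 5 fell in shDDX5 cells (median 0.43). Those with the largest changes were LAPTM4A, a small protein of the late endosome (1.48), SLC17A5, the exporter of sialic acid (1.16), and PIP4P1, a phosphoinositide phosphatase (1.15). SLC17A5 went from 77.7, 76.0 and 76.1 to 180.4, 169.7 and 164 CPM, with no overlap, so the exporter of the sugar that NEU1 releases was also higher. With RX-5902, 14 of 31 rose and 6 fell (median 0.13). The sorting receptor SORT1 went from 38.5, 38.1 and 40.3 to 90.3, 88.2 and 85.0 CPM (log2 1.17, SE 0.05, edgeR adjusted p = 2.53e-20). MFSD12, which imports cysteine into the lysosome, rose by 0.71 and TMEM192, a protein of its membrane, fell by 0.88.

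Of 15 other testable V-ATPase subunits and assembly factors 9 rose and 3 fell in shDDX5 cells (median 0.68), for example ATP6V1G1, a stalk subunit, by 1.15 and ROGDI by 1.06 on the log2 scale. DMXL2, which helps assemble the pump, had 74.7, 72.9 and 71.7 CPM in shControl and 79.5, 176 and 167 CPM in shDDX5 libraries. Its replicate 1 was close to the controls (log2 0.95, SE 0.26, edgeR adjusted p = 0.0142), and the call was lost without shControl replicate 1 or 3 (adjusted p = 0.0535 and 0.0528). With RX-5902 this list had 3 of 14 higher and 5 lower (median -0.075), with the assembly factor genes CCDC115 and VMA21 falling by 0.45 and 0.40 and the subunit gene ATP6V1E2 by 0.49. The members' own counts in that experiment were 8 higher and 2 lower of 13, and the difference between the lists was not tested.

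Among 24 other genes of mTORC1 and nutrient sensing, 10 rose and 1 fell in shDDX5 cells with a median of 0.07, close to that of all genes. Without shDDX5 replicate 1 these counts were 12 and 5. RRAGB, the Rag GTPase that pairs with RagC or RagD, went from 18.9, 17.3 and 17.8 to 86.7, 75.9 and 72.8 CPM. This rise of 2.12 (SE 0.10, edgeR adjusted p = 3.79e-06) was the largest in the 4 lists, and the groups were far apart. FNIP1, the partner of FLCN, rose by 1.26. ZKSCAN3, a repressor of autophagy genes, rose by 1.10 in shDDX5 cells and by 0.76 with RX-5902. With RX-5902 the list had 7 higher and 9 lower of 24 (median -0.085), with KICS2 falling by 1.09 and NPRL3 by 0.55, both members of complexes that restrain mTORC1.

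Markers of myeloid cells moved in the knockdown experiment as well. The 12 myeloid genes summed to 4242 to 4604 CPM in shControl and 13441 to 14763 CPM in shDDX5 libraries, with LYZ the largest part, and 6 of the 10 testable ones rose and 3 fell. The 15 genes of macrophage maturation summed to 3373 to 3846 CPM in shControl and 5513 to 6544 CPM in shDDX5 libraries, most of it CHI3L1. Of the 9 testable ones 4 rose (APOE, VSIG4, GPNMB and CHI3L1) and 3 fell (CD163, MSR1 and CHIT1), and C1QB was at 0 in all 6 libraries. The 7 markers of T, NK and B cells summed to 53.4 to 57.7 and 96.4 to 146 CPM, nearly all NKG7, with MS4A1 at 0 in all 6 libraries, and the 9 markers of epithelial, fibroblast and packaging cells to 10.5 to 11.9 and 12.3 to 14.0 CPM, with EPCAM, KRT19, DCN and PAX2 at 0. In the last list the group means of L1CAM went from 7.04 to 1.62 CPM, of COL1A1 from 0.577 to 4.76 and of KRT8 from 3.41 to 6.18 CPM. In the compound experiment the myeloid sum was 1418 to 1443 CPM with DMSO and 1470 to 1522 CPM with RX-5902, the macrophage sum 252 to 273 and 242 to 246 CPM, the sum of lymphoid markers 16.5 to 17.4 and 25.0 to 27.6 CPM, and that of epithelial, fibroblast and packaging cells 4.71 to 5.10 and 19.0 to 21.3 CPM, most of it L1CAM, whose mean went from 3.82 to 18.5 CPM. These sums hide opposite changes. Of the 9 testable myeloid genes 4 rose with RX-5902 (PTPRC, SPI1, CSF1R and ITGAM) and 4 fell (CD33, FLT3, MPO and LYZ). Of the 5 testable macrophage genes 3 rose (CD163, APOE and CHIT1), all at low levels, and 1 fell (CHI3L1, most of the sum). The part of these shifts in the lysosomal changes was not tested.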

How the data were processed

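RNA of MOLM-14 cells was sequenced in 12 libraries, 3 per group, which the labels call biological replicates. The values used are raw counts of reads per gene, as deposited by the authors. Tools listed in the submitters' processing notes are featureCounts (Subread 2.0.3), STAR 2.7.9a, Trim Galore 0.6.7, Picard 2.8.0, DESeq2 1.46.0 and R 4.4.2; the build is GRCh38.p13. Annotation release and strand setting are not given in the sources used here, so reads of genes that overlap on opposite strands cannot be assigned with certainty. Depth ranged from 17603589 to 20367575 counts per library.

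Symbols were matched by Ensembl identifier to the reference annotation, for 59984 identifiers with their version and 1773 without it, while 149 had none. Each experiment was fitted alone in R 4.3.3 with edgeR 4.0.16: default expression filter, TMM factors, quasi-likelihood F test, two-sided, Benjamini-Hochberg adjustment over all genes tested, called at an adjusted p under 0.05. Standard errors were derived from the F statistic. The difference between the experiments was tested with 4 group means over 12 libraries. The code was tested on simulated counts. TPM was computed from the counts and the gene lengths in the tables. Alternatives were other scaling factors, DESeq2 1.42.0, other filters (none, or a mean of at least 1 CPM), a test against a fold of 1.2, 1 fit of all 12 libraries, a replicate block, and leaving out each library in turn.

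Values by library were given for all 6 TFEB-branch members and, in every other class, for the called members with the lowest p, at most 4 in the knockdown and 2 in the compound experiment. From each other list, up to 3 called genes with the largest change and a mean of at least 5 CPM were named. Library values of CTSB, SCARB2, GAA, ATP6V0B and NPC1 in the knockdown and of CTSA in the compound experiment were added after they were seen. The members, lists and rules were chosen with earlier results of these data known. One list gene, VMA22, was not matched under that symbol.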

Additional observations from a re-analysis of the deposited data

How the results depend on the processing

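No called member changed direction under any alternative run. With a replicate block 32 members were higher and 3 lower in the knockdown experiment, against 26% and 26.5% of all genes. In the compound experiment 27 were higher and 5 lower, against 31.4% and 31%. The difference had 26 and 6, where 7626 of all 15386 genes were called. The replicate numbers are not taken to pair the libraries, since same-numbered libraries had correlations between -0.074 and 0.035. Leaving out 1 library at a time gave 3 to 5 lower members in the knockdown experiment, with 5 without shDDX5 replicate 1, and 4 to 9 in the compound experiment. Of all genes 35.7% were lower without shDDX5 replicate 1. In the compound fits 8413 to 8691 of 14224 to 14319 genes were called in either direction. Against a fold of 1.2, 10 members were higher and 1 lower with RX-5902, and 5190 genes of all were called in place of 8943. In 1 fit of all 12 libraries, 21 members were higher and 3 lower with RX-5902, and 36 higher and 4 lower in shDDX5 cells, against 24.5% higher and 19.8% lower of all 15386 genes with RX-5902 and 31.8% and 31.1% in shDDX5 cells. The cause of these shifts was not tested, apart from the fold test, which asks for a larger change by construction. Counts of all genes in the knockdown experiment ranged from 6676 to 10645 when 1 library was left out, the highest without shDDX5 replicate 1. CTSL was too low to test.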
